A study of Mus musculus with 4 samples.

Results

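Cells of the murine kidney epithelial line MCT, which the labels place in the convoluted tubule, were exposed either to the calcineurin inhibitor cyclosporine A (CsA, 10 μg/ml) or to the NFAT inhibitor peptide 11R-VIVIT (1 μM), and their RNA was run on a PCR array of mouse nephrotoxicity genes. The comparison set these samples directly against each other, 1 sample a side, and the members were all 84 array genes other than Actb, out of the same 84 genes measured in the 4 samples of the series. The other samples, untreated cells and cells with the p38 MAPK inhibitor SB203580 (10 μM), took no part in the differences. General methods give an exposure of 24 h. No genotype or transgene was involved, each agent was used at 1 dose, and a vehicle is not named in the sources used here. With 1 sample a side there is no spread between replicates, and no difference below was tested.

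CsA binds a cyclophilin inside the cell, and the complex blocks the phosphatase calcineurin. Calcineurin normally removes phosphate groups from NFAT, a family of transcription factors that then enter the nucleus, and it acts on other proteins as well. 11R-VIVIT is a peptide with an arginine tail for cell entry. It occupies the site on calcineurin where NFAT docks, so it interferes with NFAT activation and leaves the catalytic site of the phosphatase free. Setting the agents side by side asks which nephrotoxicity genes stood at another level under the drug than under the peptide. How far either agent blocked NFAT in these cells was not measured on the array.

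CsA-treated cells had much more message of the secreted lipoprotein lipase inhibitor Angptl4 (19.1-fold) and of the intermediate filament protein vimentin (Vim, 5.54-fold) than 11R-VIVIT-treated cells. The stress and DNA damage response genes Atf3 and Gadd45a and the conjugating enzymes Ugt1a6 and Gstp1 were higher as well, while the conjugating enzyme Gstk1 was lower. CsA-treated cells had less of Mt1a (42.2-fold lower), of the tubular injury marker Havcr1 (KIM-1, 6.81-fold lower), of glutamine synthetase (Glul), of heme oxygenase Hmox1 and of the organic anion carriers Abcc2 and Slc22a6. Relative to Actb, 18 genes were at least 2-fold higher with CsA (22.8% of the 79 genes with a value) and 12 were at least 2-fold lower (15.2%), and 49 lay within 2-fold, 5 of them with a bound that leaves a larger difference possible. Differences of at least 4-fold were reached by 4 genes above and 5 below. In such bulk RNA, fewer cells of a type and less message per cell cannot be told apart.

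Each value starts from a Ct, the number of PCR cycles needed before fluorescence passes a set threshold, so that a lower Ct means more template. Actb had a Ct of 17.8 with CsA and 18.1 with 11R-VIVIT, and the Ct of the array genes ran from 16.96 to 37.3, with medians of 29.8 (CsA) and 30.05 (11R-VIVIT). The log2 difference is the Ct with 11R-VIVIT minus the Ct with CsA, each taken after subtracting Actb, so a positive value means more message with CsA. A Ct of 35 or later was read as not detected and set to 35. This held for 6 genes with CsA and 10 with 11R-VIVIT. It left 73 genes measured in both samples, 5 with a lower bound, 1 with an upper bound, and 5 (Calb1, Fmo2, Gc, Igfbp1 and Uchl1) without a difference. The median of the 79 values was 0.099 on the log2 scale. Taking the array median in place of Actb lowered every difference by 0.57 and taking no reference raised every difference by 0.29. Of the genes at least 2-fold apart, the share that was higher with CsA was 60.0% with Actb, 35.3% with the array median and 73.0% without a reference.

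Of the 18 higher genes, 12 were also at least 2-fold higher relative to the array median and without a reference. The 6 that were not, all because of the array median, were Abcb1b, CCnd1, Cyp2d4, Lgals3, Tmsb10 and Tnfrsf12a. Of the 12 lower genes, 10 kept their call with all 3 references, and Egf and Gstk1 lost it without a reference.

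**Figure D1:**
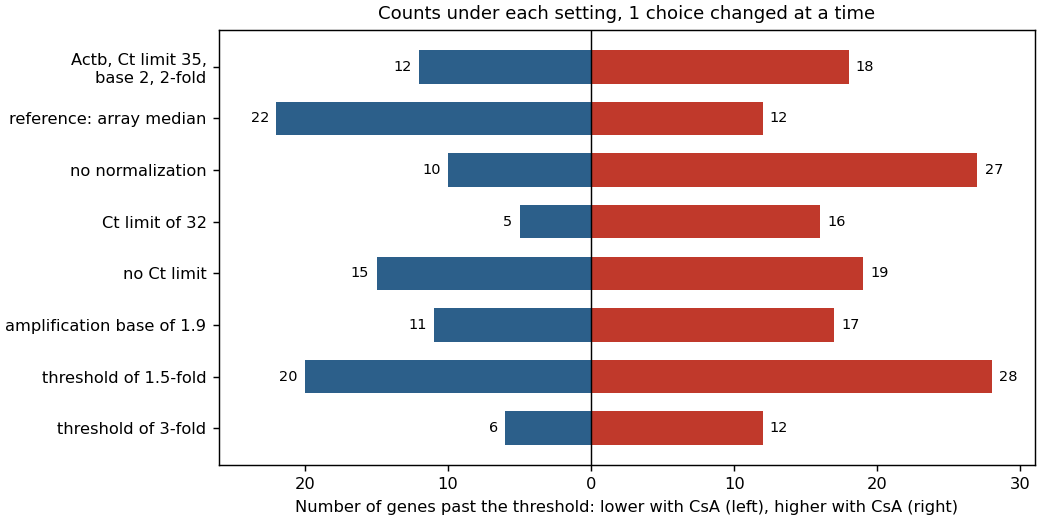
Number of genes past the threshold with each setting, with genes lower with CsA drawn to the left and genes higher with CsA to the right. The reference moved the balance most, from 12 lower and 18 higher with Actb to 22 and 12 with the array median and to 10 and 27 without a reference.

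**Figure D2:**
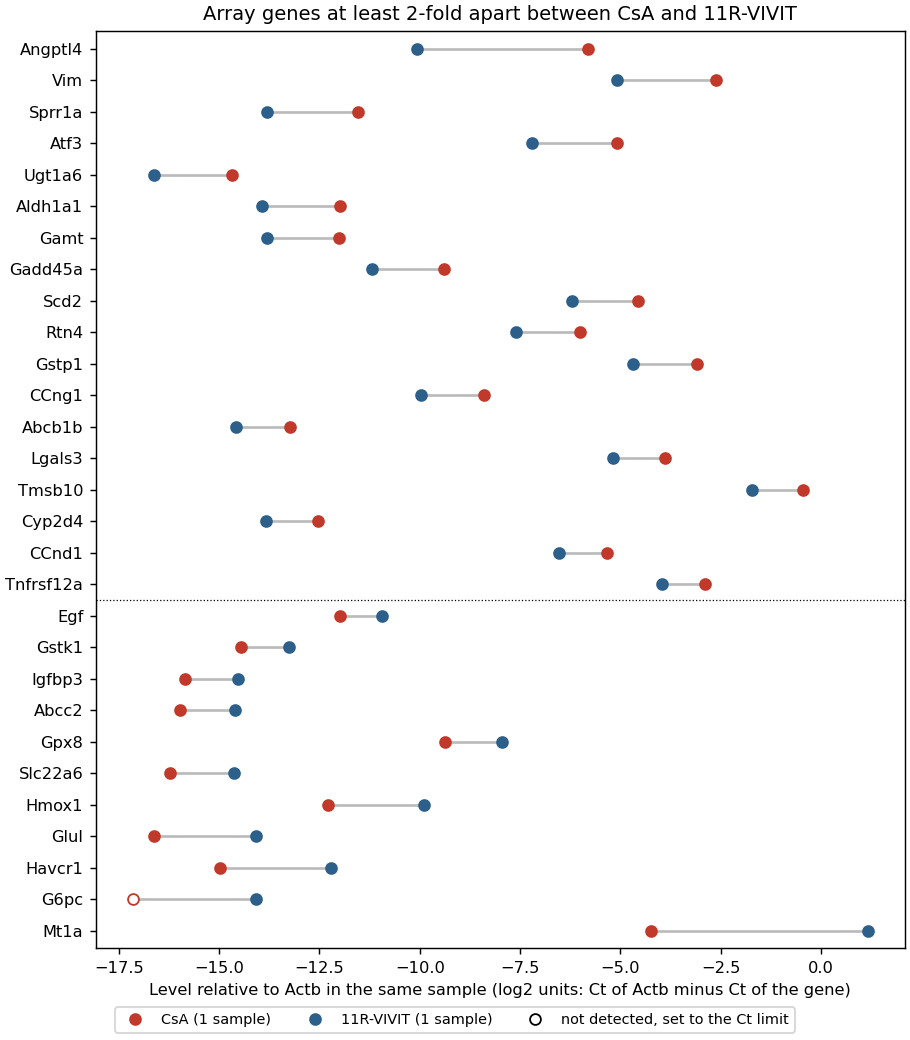
Level of 29 of the genes at least 2-fold apart, as the Ct of Actb minus the Ct of the gene in log2 units, with 1 point for CsA (red) and 1 for 11R-VIVIT (blue), joined by a grey line whose length is the difference. The 18 genes above the dotted line were higher with CsA and the 11 below it lower; the open point of G6pc with CsA is the detection limit, and levels of different genes are not comparable because primers differ.

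The lists used below group the array genes by their known roles, and 78 of the 81 genes reported singly are in a list. They were chosen with earlier results of these data known. The counts of each list stand beside 22.8% of all genes with a value higher with CsA and 15.2% lower. As a set, the cytoskeletal and regeneration genes had the highest median difference (1.94 over 4 genes, beside 0.099 over all genes). Their undetected member Uchl1 was at -2.23 with no Ct limit, and the reference Actb is itself a cytoskeletal gene. The efflux pumps and organic ion transporters had the lowest median (-0.81). The list medians of the tubular injury markers and of the BMP, matrix and growth factor regulators were small enough to change sign with the array median as the reference. Those of the heme and redox genes, the inflammatory genes and the amino acid enzymes changed sign without a reference.

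**Figure D3:**
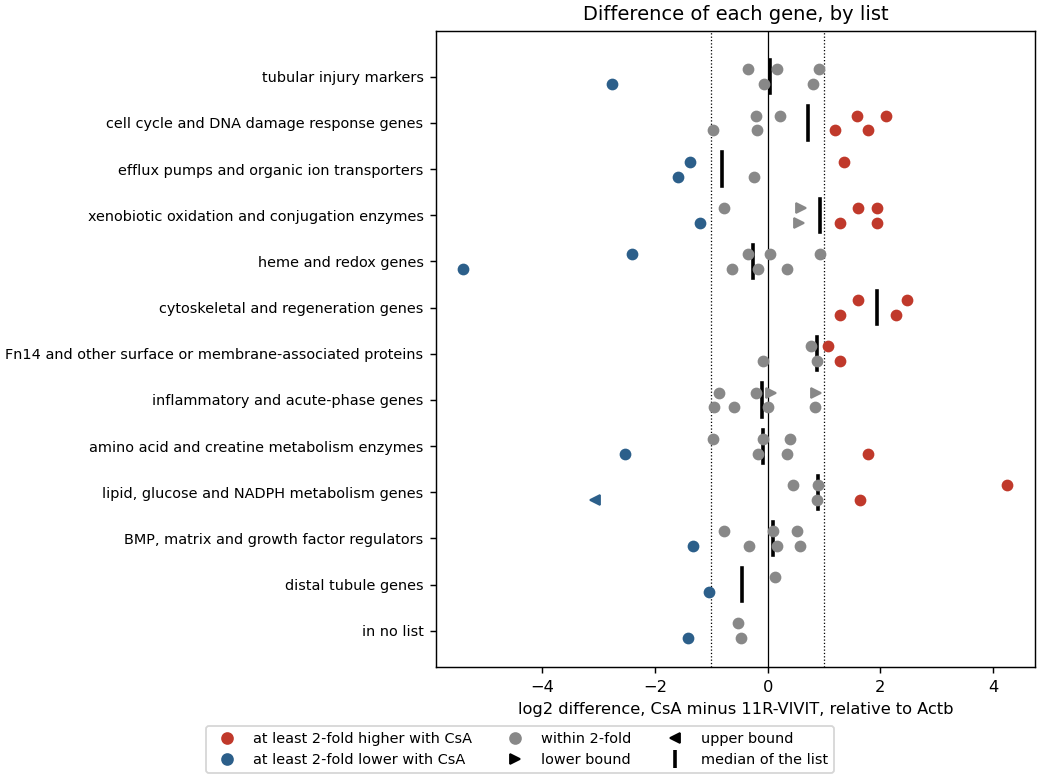
The log2 difference (CsA minus 11R-VIVIT, relative to Actb) of each reported gene with a value, by list, with triangles for bounds, black bars for list medians and dotted lines at 2-fold; points are shifted vertically so that they do not cover each other. All 4 detected cytoskeletal and regeneration genes lie right of the 2-fold line, 2 of 4 transporters lie left of it, and all inflammatory points lie between the lines.

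Of the 5 cytoskeletal and regeneration genes, 4 were at least 2-fold higher with CsA and Uchl1 was not detected in either sample. The share higher over all genes with a value was 22.8%. Vim had a Ct of 20.5 with CsA and 23.2 with 11R-VIVIT, a log2 difference of 2.47. Among genes before cycle 25 in both samples it had the widest gap on the CsA side. Sprr1a, a small proline-rich protein of stressed and regenerating epithelia, had a Ct of 29.4 with CsA and 31.9 with 11R-VIVIT, a difference of 2.28 (4.86-fold). Rtn4, a reticulon that shapes the endoplasmic reticulum, had a Ct of 23.8 and 25.7 in the same order, a difference of 1.60 (3.04-fold). Tmsb10, which binds actin monomers, amplified at 18.3 and 19.9, and its difference of 1.28 (2.43-fold) was 0.72 relative to the array median. Vim is also a mesenchymal marker. Of the pair of mesenchymal markers listed, Fn1 (fibronectin) stayed at a Ct of 22.1 with CsA and 22.5 with 11R-VIVIT, a difference of 0.16, and the part of any change in cell state in the Vim value was not tested.

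The metabolic list of lipid, glucose and NADPH genes held genes far apart in both directions among its 6 members, with 2 higher, 1 lower and 3 within 2-fold. Angptl4 had a Ct of 23.7 with CsA and 28.2 with 11R-VIVIT, which gives a log2 difference of 4.25, the highest on the array. Scd2, a desaturase that makes monounsaturated fatty acids, had a Ct of 22.4 with CsA and 24.3 with 11R-VIVIT, a difference of 1.64 (3.12-fold). G6pc is the phosphatase that releases free glucose in gluconeogenic cells such as those of the proximal tubule. It went the other way, with a Ct of 32.2 with 11R-VIVIT and none below the limit with CsA (35.1), so its level with CsA was at least 8.40-fold lower. Idh1 (0.88), Rgn (0.89) and Ipmk (0.46) lay on the CsA side without reaching 2-fold.

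Among 8 cell cycle and DNA damage response genes, 4 were at least 2-fold higher with CsA and none lower. The shares over all genes with a value were 22.8% and 15.2%. Atf3, a transcription factor induced by many stresses, had a Ct of 22.9 with CsA and 25.3 with 11R-VIVIT, a log2 difference of 2.10 (4.29-fold). Gadd45a, a growth arrest gene induced by DNA damage, had a Ct of 27.3 and 29.3 and a difference of 1.78 (3.44-fold). CCng1, a cyclin gene that p53 activates, stood at 26.2 and 28.1, a difference of 1.59 (3.00-fold). The cyclin D gene CCnd1, which drives entry into the cell cycle, had a Ct of 23.2 with CsA and 24.7 with 11R-VIVIT, and its difference of 1.195 (2.29-fold) was 0.63 relative to the array median. The list did not move as a block. Cdkn1a, the p21 cell cycle inhibitor and another p53 target, differed by -0.21 and the anti-proliferative gene Btg2 by 0.22, while the chaperone Hsp90aa1 differed by -0.18. Mcm6, a subunit of the replicative helicase, was on the other side at -0.97, just short of 2-fold.

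The 9 enzymes of xenobiotic oxidation and conjugation comprised 4 higher genes, 1 lower gene, 3 within 2-fold and 1 (Fmo2) not detected. Over all genes with a value, 22.8% were higher and 15.2% lower. Ugt1a6, which attaches glucuronic acid to phenols, had a Ct of 32.5 with CsA and 34.8 with 11R-VIVIT, a difference of 1.95 (3.86-fold), close to the detection limit on the lower side. Aldh1a1, which oxidizes retinaldehyde, had a Ct of 29.8 and 32.1 in the same order and a difference of 1.94 (3.85-fold). The glutathione transferase Gstp1 amplified much earlier, at 20.9 and 22.8, and differed by 1.60 (3.03-fold). Cyp2d4, a cytochrome P450 symbol that the mouse gene table used here does not list, had a Ct of 30.4 and 31.95 and a difference of 1.28 (2.43-fold), or 0.71 relative to the array median. The other glutathione transferase, Gstk1, was lower with CsA, with a Ct of 32.3 against 31.4 and a difference of -1.20. The transferases therefore lay on opposite sides with all 3 references, although Gstk1 was short of 2-fold without one (-0.92). The quinone reductase Nqo1 and Ugt1a1 were detected only with CsA, at 34.1 and 34.2, and had lower bounds of 0.60 and 0.55. Cyp2c11 stood at -0.77. Ugt1a1 and Ugt1a6 transcripts share their later exons, and Gstp1 has a near-identical relative, and it is not stated whether the assays separate them.

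Of 4 efflux pumps and organic ion transporters, 1 was higher and 2 were lower with CsA, beside 22.8% and 15.2% of all genes. Abcb1b encodes a P-glycoprotein, the pump that exports CsA and many other drugs. It had a Ct of 31.1 with CsA and 32.7 with 11R-VIVIT, a difference of 1.35 (2.54-fold), or 0.78 relative to the array median. Abcc2, an apical pump for organic anions and conjugates, had a Ct of 33.8 with CsA and 32.7 with 11R-VIVIT, a difference of -1.38. Slc22a6, the basolateral organic anion transporter of the proximal tubule, had a Ct of 34.1 against 32.8 and a difference of -1.59. Abcc2 and Slc22a6 were late in both samples, and with a Ct limit of 32 neither had a value. Slc22a5, the carnitine transporter, amplified at 26.2 in both samples and differed by -0.24.

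The 6 tubular injury markers did not share a direction. Havcr1 encodes KIM-1, which injured proximal tubule cells put on their surface. It had a Ct of 32.8 with CsA and 30.3 with 11R-VIVIT, a log2 difference of -2.77. Lcn2, which encodes NGAL, had a Ct of 26.0 with CsA and 27.2 with 11R-VIVIT and lay on the CsA side at 0.91. Osteopontin (Spp1) had a Ct of 28.7 against 29.8 and a difference of 0.80. Clusterin (Clu, -0.35), the protease inhibitor Timp1 (-0.07) and cystatin C (Cst3, 0.17) were nearer to 0. Only Havcr1 reached 2-fold relative to Actb, and Lcn2 and Spp1 did so without a reference.

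Of 8 heme and redox genes, 2 were at least 2-fold lower with CsA and none was higher, beside 15.2% and 22.8% of all genes. Mt1a, by its name a metallothionein that binds zinc and copper, had a Ct of 22.1 with CsA and 16.96 with 11R-VIVIT, where it came earlier than Actb. The log2 difference of -5.40 was the lowest on the array. The mouse gene table lists Mt1a only among the synonyms of Polr2k, so which transcript the assay amplified is not settled. Hmox1, the inducible enzyme that degrades heme, had a Ct of 30.1 with CsA and 28.0 with 11R-VIVIT, a difference of -2.41 (5.30-fold). Its constitutive relative Hmox2 differed by -0.64. Catalase (Cat), with a Ct of 28.1 against 29.3, lay on the CsA side at 0.93, and the oxidase Nox4 (0.34), Sod2 (0.04), the copper chaperone Ccs (-0.17) and ceruloplasmin (Cp, -0.35) were nearer to 0.

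Among 7 enzymes of amino acid and creatine metabolism, 1 was higher, 1 lower and 5 within 2-fold. Gamt, which completes the synthesis of creatine, had a Ct of 29.9 with CsA and 31.9 with 11R-VIVIT, a difference of 1.79 (3.45-fold). Gatm, which starts the same pathway, had a Ct of 32.3 and 32.98 and a difference of 0.40. Glul makes glutamine from glutamate and ammonia, and its Ct was 34.5 with CsA and 32.2 with 11R-VIVIT, a difference of -2.54 (5.81-fold). The Ct with CsA was close to the detection limit, and with a Ct limit of 32 Glul had no value. Bhmt, which transfers a methyl group from betaine to homocysteine, was at -0.98, and Odc1 (0.34), Oat (-0.08) and Aass (-0.17) were closer.

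Tnfrsf12a encodes Fn14, the TWEAK receptor that the study used as its marker of calcineurin inhibitor toxicity. Its Ct was 20.7 with CsA and 22.1 with 11R-VIVIT, and the log2 difference of 1.07 (2.11-fold) stood just past the threshold. It was short of 2-fold relative to the array median (0.51) and at an amplification base of 1.9 (0.99). Of the other surface or membrane-associated proteins, galectin-3 (Lgals3) had a Ct of 21.7 against 23.3 and a difference of 1.29 (2.44-fold), or 0.72 relative to the array median. Cd44, the hyaluronan receptor, had a Ct of 23.0 against 24.1 and a difference of 0.88, and Anxa5, which binds phosphatidylserine, one of 0.77. Cd24 had nearly the same level in both samples (-0.09). In this list 2 of 5 were higher and none lower, beside 22.8% and 15.2% of all genes with a value. Above 0 lay 4 of the 5, beside 43 of the 79 over all genes.

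None of the 9 inflammatory and acute-phase genes was shown to be 2-fold apart. The T cell chemokine Cxcl10 had a Ct of 33.9 with CsA and was not detected with 11R-VIVIT (35.03), which puts its difference at 0.85 or more. The protease inhibitor A2m had a Ct of 32.96 against 34.1 and differed by 0.85. The fibrinogen chain Fgb was detected only with CsA (34.6), with a lower bound of 0.07 that becomes -0.50 relative to the array median, and it was 1.35 with no Ct limit. On the other side lay the neutrophil chemokine Cxcl1 (Ct 22.7 against 22.0, -0.95), Gpnmb (-0.87), Ccl3 (-0.60) and the adhesion molecule Vcam1 (-0.20). Cathepsin S (Ctss) had the smallest difference of all measured genes, 0.0091, from a Ct of 32.7 and 33.03. All of these except Cxcl1 were later than cycle 32 in both samples.

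The study names 10 genes for this array that can be followed here, namely A2m, Cat, Ccl3, Cd44, Cxcl10, Fgb, Nox4, Rgn, Spp1 and Vcam1, and it chose them on these samples. The study reports these genes as raised by CsA and by a kinase inhibitor, and as unaltered by the peptide. It does not state a fold threshold for them. The contrast and the threshold used here are others, so the counts below do not test that statement. Directly between CsA and 11R-VIVIT, none of the 10 was shown to be 2-fold apart, where 38.0% of all genes with a value were. The values of Cxcl10 and Fgb are lower bounds that leave 2-fold possible, and with no Ct limit 1 of the 10 (Fgb, 1.35) was at least 2-fold higher. Above 0 were 8 of them and below 0 were 2 (Ccl3 and Vcam1), beside 43 of the 79 above 0 over all genes. Their median was 0.83 when the bounds are taken as values and 0.86 with no Ct limit. The median over all genes was 0.099. Without a reference 6 of the 10 reached 2-fold on the CsA side, and relative to the array median none was shown to, with a median of 0.26 and Ccl3 at -1.17. Outside the 10, genes followed from other assays of the study were mixed relative to Actb. The study measured Fn14 as protein, by flow cytometry and Western blot. It took the others named here from RNAseq of kidney cells sorted from injected mice. Samples, contrast and, for Fn14, the measure thus differ, so the values below do not test those results. Angptl4 (4.255), Abcb1b (1.35) and Tnfrsf12a (1.07) were at least 2-fold higher with CsA. Gpnmb (-0.87), Mgp (-0.77) and Ugt1a1 (lower bound 0.55) were not shown to be 2-fold apart, and Gc had no difference.

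Of the 8 BMP, matrix and growth factor regulators, 1 was lower with CsA and none higher. Igfbp3, which binds insulin-like growth factors, had a Ct of 33.7 with CsA and 32.7 with 11R-VIVIT, a difference of -1.32. Matrix Gla protein (Mgp) was at -0.77, and the matricellular gene Cyr61 (0.57), the growth hormone receptor Ghr (0.52), Bmp1 (0.10) and Bmp4 (-0.33) were within 2-fold. Among the distal tubule genes, Egf had a Ct of 29.8 against 29.1 and a difference of -1.04, which was -0.75 without a reference and -0.96 at an amplification base of 1.9. Klk1b3 (Ct 34.0 and 34.4) differed by 0.13. Of the genes in no list, the peroxidase Gpx8 of the endoplasmic reticulum had a Ct of 27.2 with CsA and 26.1 with 11R-VIVIT and was lower by -1.40 (2.65-fold), and Socs3 (-0.52) and Sod3 (-0.47) were within 2-fold.

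The genes with the smallest differences after Ctss were Sod2 (0.04), Timp1 (-0.07), Oat (-0.08) and Cd24 (-0.09), each detected in both samples. Of the 73 measured genes, 17 lay within 0.25 log2 units of 0, and the median absolute difference was 0.88. An interval for these differences cannot be given from 1 sample a side.

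The calls are also given by the later Ct of each gene, as a description. Of the 21 genes whose later Ct was before cycle 25, 7 were at least 2-fold higher with CsA and 1 (Mt1a) was lower. Of the 20 genes between 25 and 30, 5 were higher and 2 (Egf and Gpx8) lower. Of the 32 genes from cycle 30 on, 6 were higher and 8 lower, and the median difference went from 0.57 in the early genes to 0.0062 and -0.19 in the later ones. A late Ct reflects few copies of the template, whose count varies more by chance, and its part in the lower genes was not tested.

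**Figure D4:**
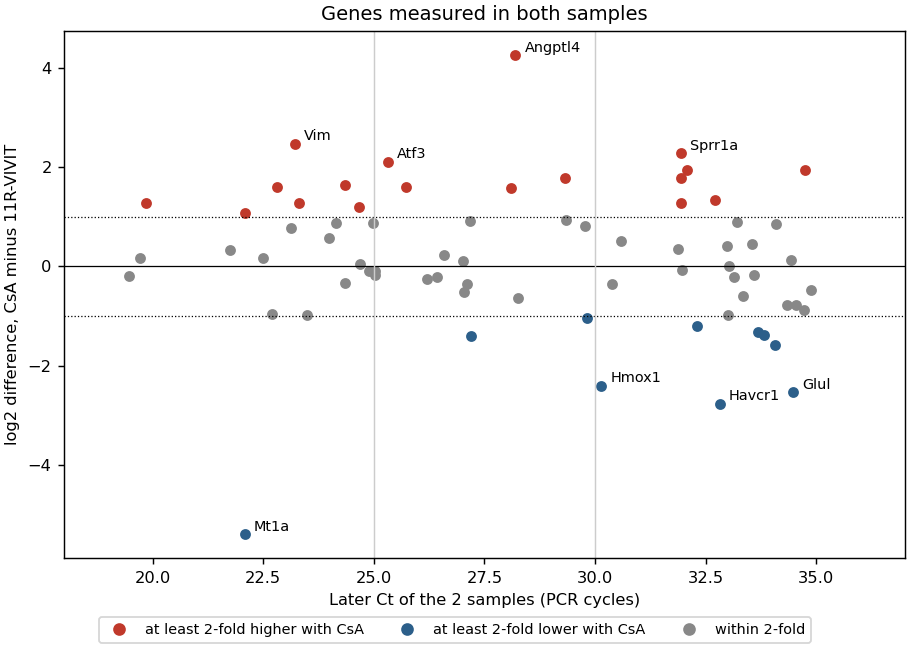
The log2 difference (CsA minus 11R-VIVIT) of 71 genes measured in both samples against the later of their Ct values, with dotted lines at 2-fold, grey lines at cycles 25 and 30, and names for differences of at least 2 log2 units. Of the 10 plotted genes lower with CsA, 7 lie right of cycle 30, and Mt1a stands alone among the early genes at -5.40.

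The labelled tissue was checked against marker genes. Of 6 listed proximal tubule markers, 4 are on the array (Havcr1, Gatm, Gamt and Slc22a5) and these were detected in both samples, at a Ct of 26.2 to 32.8 with CsA and 26.2 to 32.98 with 11R-VIVIT, and 2 of them were 2-fold apart. Outside that marker list, the proximal tubule transporter Slc22a6 was late (34.1 with CsA and 32.8 with 11R-VIVIT), and G6pc was not detected with CsA. Of the distal tubule markers Egf and Klk1b3 were detected and Calb1 was not. The immune cell markers Ctss, Ccl3 and Gpnmb were late in both samples, at a Ct of 32.7 to 34.7 with CsA and 33.03 to 34.1 with 11R-VIVIT, and 0 of the 3 were 2-fold apart. The mesenchymal markers Vim and Fn1 were early, at a Ct of 20.5 to 22.1 with CsA and 22.5 to 23.2 with 11R-VIVIT, and 1 of the 2 was 2-fold apart. Havcr1 is also among the tubular injury markers above.

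NFAT binds DNA at sites with the core letters GGAAA, so the bases upstream of the RefSeq start sites were searched for GGAAA and, on the other strand, TTTCC. These letters contain GGAA, the core of ETS sites, and are common. Of 32851 promoter windows of 250 bases, 55.6% hold a match. Of the array genes reported, 60 matched the table, with 76 windows, and 50.0% of these hold one. A match was present in 7 of the 18 windows of 13 genes higher with CsA (38.9%), in 7 of the 12 windows of 9 genes lower with CsA (58.3%) and in 22 of the 41 windows of 34 genes within 2-fold (53.7%). The windows of Vim (higher with CsA) and Glul (lower with CsA) are shown as genes with a single window in the table. That of Tnfrsf12a is shown as the gene of Fn14. The windows end at the base before the start site in GRCm38.p6 and are written in the direction of transcription, with matches in capitals.
Vim, chr2:13574061-13574310, plus strand: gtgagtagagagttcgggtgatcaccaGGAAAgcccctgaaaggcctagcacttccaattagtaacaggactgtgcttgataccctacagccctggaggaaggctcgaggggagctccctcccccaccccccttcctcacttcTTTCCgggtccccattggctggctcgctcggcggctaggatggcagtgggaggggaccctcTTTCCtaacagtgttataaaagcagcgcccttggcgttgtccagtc
Tnfrsf12a, chr17:23677450-23677699, minus strand: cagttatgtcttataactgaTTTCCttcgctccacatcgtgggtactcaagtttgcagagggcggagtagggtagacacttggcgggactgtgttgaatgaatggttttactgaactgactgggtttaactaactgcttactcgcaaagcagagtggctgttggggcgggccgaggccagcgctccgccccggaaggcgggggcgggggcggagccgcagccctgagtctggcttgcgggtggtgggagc
Glul, chr1:153899679-153899928, plus strand: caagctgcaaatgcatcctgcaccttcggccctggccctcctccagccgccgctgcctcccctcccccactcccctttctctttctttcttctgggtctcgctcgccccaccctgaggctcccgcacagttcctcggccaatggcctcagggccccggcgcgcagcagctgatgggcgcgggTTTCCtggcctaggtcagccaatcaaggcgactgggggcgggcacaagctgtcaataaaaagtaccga
The Vim window holds 3 matches, 1 of GGAAA and 2 of TTTCC, and those of Tnfrsf12a and Glul hold 1 TTTCC each. Vim and Tnfrsf12a, both higher with CsA, and Glul, lower with CsA, thus all carry the letters.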

How the data were processed

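RNA of MCT cells was reverse transcribed and run on an RT-PCR array for mouse nephrotoxicity with SYBR green. The authors deposited raw Ct values, 1 per gene and sample and without normalization, for 84 genes and Actb. They also deposited fold changes against the untreated sample, which are their own comparison and were not used. Samples were grouped by their treatment label.

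The log2 difference was the Ct with 11R-VIVIT minus the Ct with CsA, each relative to Actb, with amplification base 2. The methods name the array's housekeeping genes as the reference, and the table used here holds Actb. A Ct of 35 or later was set to 35 and gave a bound, and a gene past it in both samples got no difference. A gene was counted at 2-fold or more. With 1 sample a side no test or p-value was possible and the precision of a well is unknown. The calculation was run on simulated Ct values with set differences and no noise, which checks the arithmetic and not the precision of the data.

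Genes at least 2-fold apart, the genes the study names and the 5 nearest to 0 were to be named. The genes, lists and alternatives were chosen with earlier results of these data known. The results for 3 genes are not reported here. They count in the totals over the array and are left out of the lists and figures of single genes. Of the 84 symbols, 77 matched a symbol of the RefSeq table for GRCm38.p6, 5 a synonym only and 2 neither. Promoter windows came from RefSeq. As alternatives, the reference was the median of the 73 genes measured in both samples or was left out, the Ct limit was 32 or none, the amplification base was 1.9, or the threshold was 1.5-fold or 3-fold, with 1 choice changed at a time. Python 3.11.15, numpy 2.4.6 and matplotlib 3.10.9 were used.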

Additional observations from a re-analysis of the deposited data

How the results depend on the processing

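Relative to the array median, the number of genes at least 2-fold lower with CsA was 22 in place of 12, and the median difference was -0.47 in place of 0.099, and with no reference it was 0.38. These shifts follow from the references themselves. With a Ct limit of 32, 5 genes were lower and the median was 0.34, since late genes lost their value. At 1.5-fold 28 genes were higher and 20 lower, and at 3-fold 6 were lower. The other counts stayed within 1.5 times of those reported. Over the 5 alternatives to the reference, limit and base, 11 of the 18 higher genes and 4 of the 12 lower genes (Gpx8, Havcr1, Hmox1 and Mt1a) kept their call throughout. Without a Ct limit, Calb1 (-1.99), Igfbp1 (-2.26) and Uchl1 (-2.23) would count as lower and Fgb (1.35) as higher. Of 219 recalculated values of single named genes, 188 kept their sign and side of 2-fold, 12 fell below 2-fold, 10 passed it and 9 small values or bounds changed sign. Values lost at a Ct limit of 32 are not among the 219. With that limit Abcc2, G6pc, Glul, Igfbp3, Slc22a6 and Ugt1a6 lost their 2-fold call because no value was left. No gene at least 2-fold apart changed sign. No paired analysis was possible because there was 1 sample a side.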

Other observations

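The untreated and SB203580-treated samples were not part of the comparison, and their levels are given for a few genes, chosen after their values were seen, as cycles after Actb, where fewer cycles mean more message. Angptl4 came 10.95 cycles after Actb in untreated cells and 9.18 with SB203580, beside 5.82 with CsA and 10.1 with 11R-VIVIT. Vim came 5.07 cycles after Actb in untreated cells and 4.25 with SB203580, beside 2.61 with CsA and 5.08 with 11R-VIVIT. Atf3 stood at 5.33 in untreated cells and 5.94 with SB203580, beside 5.09 with CsA and 7.196 with 11R-VIVIT, so that here the 11R-VIVIT sample was the one apart. Mt1a came 3.89 cycles after Actb in untreated cells, 3.07 with SB203580 and 4.23 with CsA, and 1.17 cycles before it with 11R-VIVIT (-1.17). For Mt1a too, the 11R-VIVIT sample was the one apart.

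Havcr1 came 12.9 cycles after Actb in untreated cells and 12.3 with SB203580, beside 14.98 with CsA and 12.2 with 11R-VIVIT. Glul was at 14.1 in untreated cells and 14.4 with SB203580, beside 16.6 with CsA and 14.1 with 11R-VIVIT. For both genes the CsA sample stood apart from the other 3. Hmox1 was at 10.05 in untreated cells and 11.8 with SB203580, beside 12.3 with CsA and 9.89 with 11R-VIVIT. Gamt was at 14.0 in untreated cells and 11.2 with SB203580, beside 12.0 with CsA and 13.8 with 11R-VIVIT. None of these differences was tested.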
